A study of Mus musculus with 7 samples.

Results

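Droplet barcodes that the authors' count tables hold but their table of named cells does not were compared with the barcodes that it does hold. Of the 8519 barcodes in the count tables of 2 mouse islet libraries, 5907 had an entry for their library in the cell table and are called kept cells here, and the other 2612 are called left-out barcodes. Replicate 1 held 4814 kept cells and 1581 left-out barcodes, 24.7% of its 6395. Replicate 2 held 1093 kept cells and 1031 left-out barcodes, 48.5% of its 2124. The sources used here do not state which filters removed a barcode from the cell table, nor which rule chose the barcodes of the count tables.

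The study set single-cell chemistries side by side on dispersed pancreatic islets, with 7 samples in 4 groups. Only the long-read 5' libraries made with a modified protocol, in which extra dNTP was added and the extension steps were lengthened, are analysed here. Both came from C57BL/6 mice labelled female and aged 10 weeks, whose islets were isolated by collagenase, dissociated with Accutase and loaded at a target of 4000 cells. Before Nanopore sequencing the insulin cDNA of both was cut with Cas9 and a guide panel, so the insulin genes cannot be read at their native level. The labels do not say whether the libraries came from separate animals, so the spread between them may be technical. Kept and left-out barcodes of a library share the mice, the droplet run and the sequencing.

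A droplet library assigns each RNA molecule (UMI, unique molecular identifier) to a barcode, and a barcode may mark an intact cell, a damaged cell, a bare nucleus, more than one cell, or free RNA. Analysts usually drop barcodes with few molecules, or with a large part of them from the mitochondrial genome, since a cell with a torn membrane loses cytoplasmic mRNA and holds on to its mitochondria. Nuclear RNA is recognised by long noncoding RNAs such as Malat1 and Neat1 and by transcripts that still carry introns, while mRNAs of ribosomal proteins and secreted hormones lie mostly in the cytoplasm. In the islet the hormone genes mark the cell types: Iapp (amylin) and the insulin genes the beta cell, Gcg (glucagon) the alpha cell, Sst (somatostatin) the delta cell and Ppy (pancreatic polypeptide) the PP cell.

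The left-out barcodes carried 1969600 UMIs in replicate 1, 15.2% of that library, and 3949574 UMIs in replicate 2, 24.6% of it. Their median was 651 UMIs against 2110 for kept cells in replicate 1, and 3178 against 9949 in replicate 2. No kept cell fell below 599 UMIs or 321 genes in replicate 1, or below 1569 UMIs or 788 genes in replicate 2. The highest mitochondrial share of a kept cell was 3.21% of its UMIs in replicate 1 and 9.38% in replicate 2. These bounds of the kept cells were used to sort the left-out barcodes of the same library into 4 groups, so the groups' depth and mitochondrial share follow from the sorting.

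High mitochondrial share alone described 664 left-out barcodes in replicate 1 (42.0%) and 383 in replicate 2 (37.1%). Too few UMIs or genes alone described 465 (29.4%) and 106 (10.3%), and both together 308 (19.5%) and 29 (2.81%). The remaining 144 left-out barcodes of replicate 1 (9.11%) and 513 of replicate 2 (49.8%) lay inside the kept cells' range on all 3 measures. Those inside the range had a median of 4230.5 UMIs and 2002.5 genes in replicate 1, above the kept cells' 2110 and 1069. In replicate 2 they had 3659 UMIs and 1916 genes, below the kept cells' 9949 and 3331. The left-out barcodes of the libraries were thus of different makeup.

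**Figure D1:**
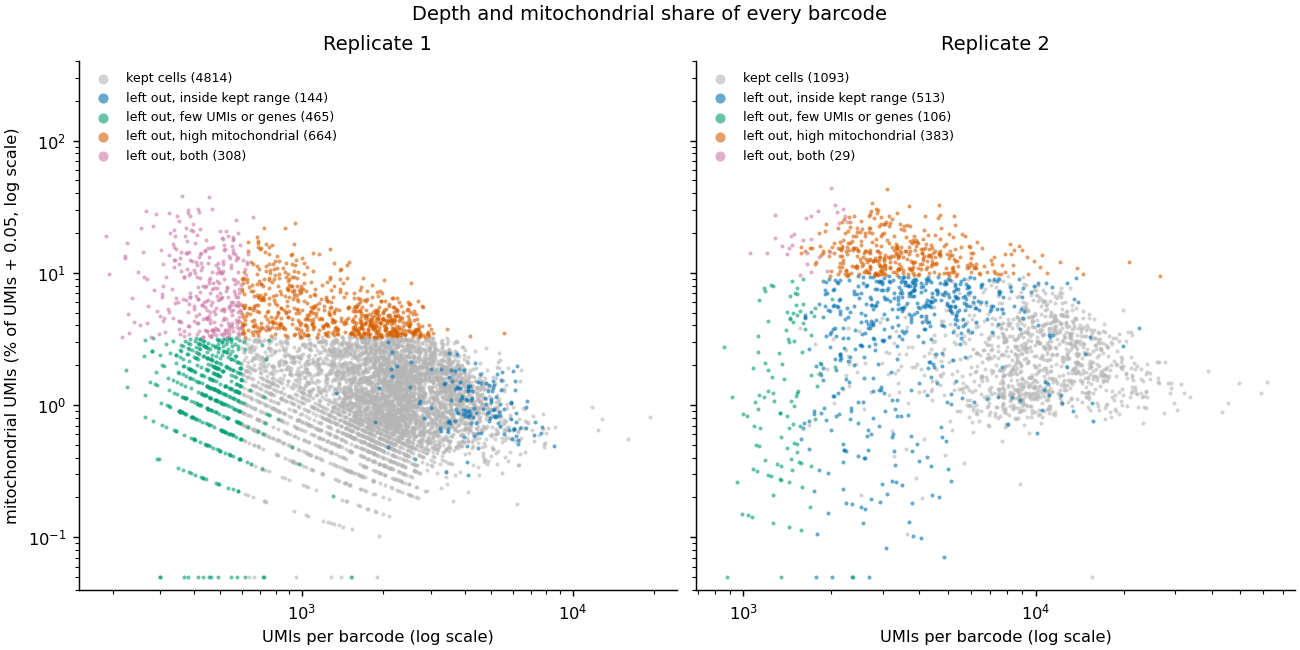
Each point is 1 barcode, with its UMIs on a log x axis and its mitochondrial share plus 0.05 points, in percent, on a log y axis, for both libraries and coloured by kept cells and the 4 groups of left-out barcodes. Left-out barcodes spread below the kept cells' UMI minimum (599 and 1569) and above their highest mitochondrial share (3.21% and 9.38%), and 144 and 513 lie among the kept cells.

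The libraries differed in facts that bear on all comparisons between them. Xist, the noncoding RNA expressed from the inactive X chromosome, was at 159.9 CPM (counts-per-million, the gene's UMIs relative to all UMIs of the same sum) in the kept cells of replicate 1 (1761 UMIs in all) and 2.23 CPM in those of replicate 2 (27 UMIs), although both libraries are labelled female. The left-out barcodes followed their library, with 419.9 and 10.9 CPM of Xist. The Y-linked genes found in the tables, Uty and Kdm5d, gave 1 UMI in all in replicate 1 and 5 in replicate 2. Only 10 barcodes were used by both libraries, 5 of them with a different status in the 2 libraries. No doublet caller was run, and the sources used here do not say whether doublets were removed before deposit.

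Across all genes, UMIs were summed per library and class, and the 2 left-out sums were compared with the 2 kept sums with the library as a block (edgeR quasi-likelihood test, 1 residual degree of freedom, Benjamini-Hochberg adjustment). Of 15835 genes tested 132 (0.834%) changed, 56 higher (0.354%) and 76 lower (0.48%) in the left-out barcodes. Scaled by library totals alone, the same test called 173 genes higher and 41 lower, with a median log2 fold change over all genes of 0.36 in place of 0.03. Without the library block it called 0 genes, with 2632 at an unadjusted p under 0.05, and DESeq2 with the block called 33. Ignoring the test, 50.8% of all tested genes were higher in left-out barcodes in both libraries and 24.7% lower in both, and the counts for gene lists below are to be read against these shares.

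Mitochondrial transcripts made up 1.21% of UMIs in the kept cells of replicate 1 (95% exact binomial interval 1.20 to 1.21) and 3.63% in its left-out barcodes (3.60 to 3.66). In replicate 2 the share was 2.41% (2.40 to 2.42) in kept cells and 8.42% (8.397 to 8.452) in left-out barcodes. These and all other intervals cover counting error only. The mean difference over the 2 libraries was 4.22 percentage points, and 4.20 when only left-out barcodes with at least the kept minimum of UMIs were used. Barcodes inside the range differed by library, at 1.00% in replicate 1, under its kept cells, and 4.65% in replicate 2, above its kept cells. The highest share of any left-out barcode was 38.1% in replicate 1 and 43.6% in replicate 2.

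All 11 tested mitochondrial mRNAs were higher in left-out barcodes in both libraries, with a median log2 fold change of 1.54, and 3 of them passed the test. Of the left-out barcodes, 972 in replicate 1 and 412 in replicate 2 lay above the kept cells' highest mitochondrial share. If barcodes were dropped for this share, higher values of these genes follow from that choice, so their p-values here only describe. Inside the range, 0 of 11 tested were higher in both libraries, 1 was lower in both and 0 passed. The ribosomal RNAs mt-Rnr1 and mt-Rnr2 were not listed in the tables. mt-Co3, encoding a subunit of cytochrome c oxidase (mm10 chrM:8607-9390), measured 25.2 and 99.5 CPM in the kept and left-out sums of replicate 1, and at 11.2 and 110.4 in replicate 2. Both left-out sums lay above both kept sums, and the gene rose 4.98-fold (log2 fold change 2.32, SE 0.49, adjusted p = 0.015). mt-Atp6, a subunit of ATP synthase, rose 4.70-fold (log2 fold change 2.23, SE 0.52, adjusted p = 0.029), and mt-Co2 4.58-fold (2.20, SE 0.48, adjusted p = 0.018).

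mRNAs of other mitochondrial genes were also higher in both libraries. mt-Cytb (cytochrome b) stood at 4070 CPM in kept cells and 11524 in left-out barcodes of replicate 1, and at 6551 and 21044 in replicate 2. mt-Nd1, of respiratory complex I, was at 2417 and 7563 in replicate 1 and at 2553 and 10832 in replicate 2. mt-Co1 differed more between the libraries than between the classes, at 988 and 2585 in replicate 1 against 8297 and 26592 in replicate 2. None of these 3 passed the test (mt-Nd1: log2 fold change 1.54, SE 1.70, adjusted p = 0.63).

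Genes for the same organelle that lie in the nuclear genome went the other way. The 20 tested nuclear genes of oxidative phosphorylation made up 0.452% of kept and 0.381% of left-out UMIs in replicate 1, and 0.602% and 0.169% in replicate 2. Of these, 18 were lower in left-out barcodes in both libraries and 2 higher in both (median log2 fold change −1.37), and 0 passed the test. Cycs (cytochrome c) measured 33.7 and 26.4 CPM in replicate 1 and at 48.3 and 15.7 in replicate 2 (adjusted p = 0.12).

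Cytosolic ribosomal protein mRNAs made up 2.43% of kept and 1.91% of left-out UMIs in replicate 1, and 2.95% and 0.601% in replicate 2. Of 30 tested, 28 were lower in both libraries and 0 higher in both, with a median log2 fold change of −1.56, and 0 passed the test. Their median within a library was −0.33 in replicate 1 and −2.15 in replicate 2, so most of the mean came from replicate 2. Rplp0, a protein of the large subunit, stood at 2648 and 2012 CPM in replicate 1 and at 2208 and 385 in replicate 2. In summed counts, fewer cells of a type and less RNA of a kind per cell cannot be told apart.

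**Figure D2:**
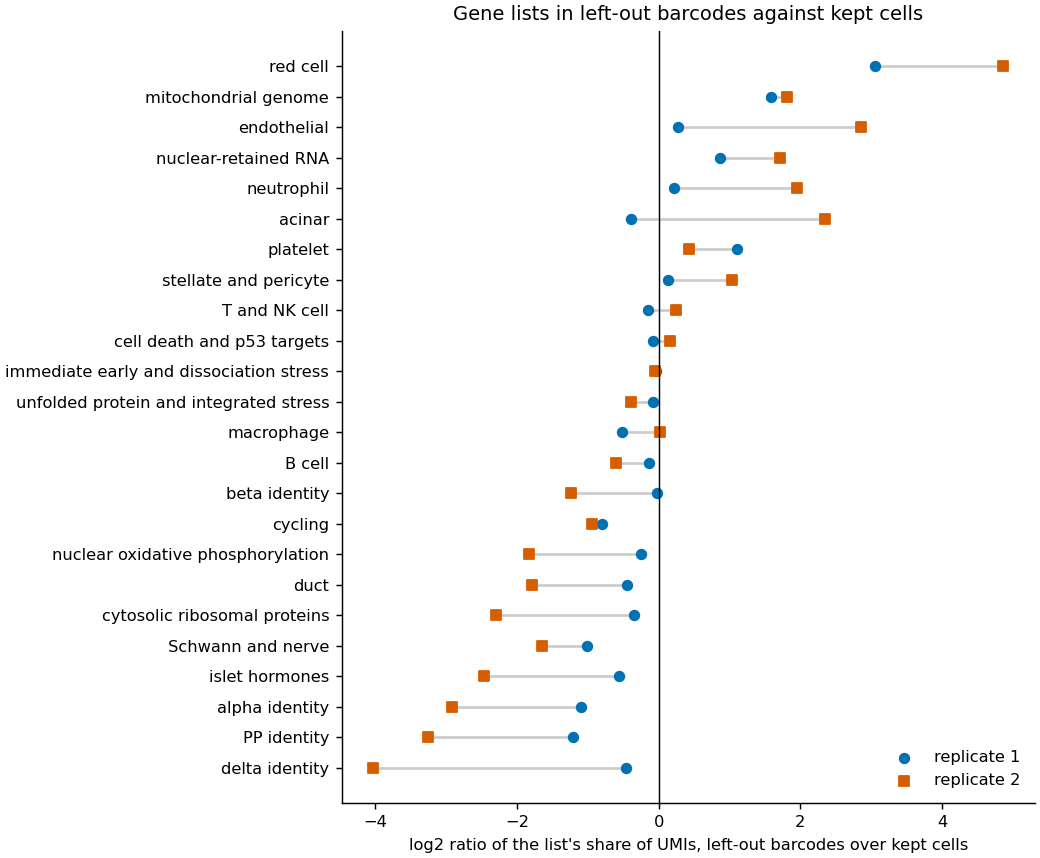
Summed share of UMIs of each gene list in left-out barcodes over kept cells of the same library, as a log2 ratio on the x axis, with 1 point per library and list. The mitochondrial list lies right of 0 in both libraries, and the hormone and ribosomal protein lists left of 0 in both and farther left in replicate 2.

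RNAs known to stay in the nucleus made up a larger share of the left-out sums in both libraries. The list of 11 held Gm42418, whose annotated locus overlaps a ribosomal RNA repeat, and that gene alone took 4.21% of kept and 7.97% of left-out UMIs in replicate 1, and 4.50% and 13.9% in replicate 2. Without it and Gm26917, another locus of this kind, the remaining 9 RNAs made up 0.941% of kept and 1.36% of left-out UMIs in replicate 1, and 0.715% and 3.02% in replicate 2. Of the 11, 10 were higher in both libraries and 0 lower in both (median log2 fold change 0.95), and 0 passed the test.

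Malat1, a nuclear speckle RNA, was at 7014 and 9912 CPM in the kept and left-out sums of replicate 1 and at 5200 and 24162 in those of replicate 2. Neat1, the scaffold of paraspeckles, measured 70.4 and 145 in replicate 1 and at 101 and 679 in replicate 2 (log2 fold change 1.57, SE 0.73, adjusted p = 0.22). Meg3, an imprinted noncoding RNA, stood at 1772 and 2501 in replicate 1 and at 1414 and 3843 in replicate 2. For each of the 3, both left-out sums lay above both kept sums, with the larger difference in replicate 2.

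The 9 nuclear RNAs did not follow the groups in the same order in both libraries. In replicate 1 they took 0.825% of UMIs in the barcodes inside the range, 1.57% in those with few UMIs or genes, 1.44% in those high in mitochondrial UMIs and 3.02% in those with both. In replicate 2 the barcodes inside the range were at 3.08%, close to the 3.04% of those high in mitochondrial UMIs and above the 2.21% of those with few UMIs or genes and the 2.23% of those with both. The barcodes inside the range thus sat below the kept cells in replicate 1 (0.941%) and above them in replicate 2 (0.715%).

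The transcript tables carried the same contrast in the structure of the molecules. UMIs on annotated transcripts amounted to 86.4% of gene UMIs in kept cells and 83.1% in left-out barcodes of replicate 1, and to 89.4% and 73.6% in replicate 2. Leaving out mitochondrial and hormone genes and Gm42418, Gm26917, AY036118 and Lars2, transcripts annotated as protein coding took 89.98% of kept and 85.2% of left-out transcript UMIs in replicate 1, and 91.3% and 67.1% in replicate 2. Transcripts annotated as retaining an intron took 3.97% and 5.99% in replicate 1, and 3.40% and 15.1% in replicate 2. Long intergenic noncoding RNAs took 2.45% and 3.44% in replicate 1, and 2.14% and 8.51% in replicate 2. With all genes included, that last class went from 6.90% to 12.7% in replicate 1 and from 6.74% to 24.6% in replicate 2.

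Within the protein-coding genes of the same set, retained-intron transcripts took 4.08% of kept and 6.33% of left-out UMIs in replicate 1, and 3.47% and 17.2% in replicate 2. With all protein-coding genes included, the shares were 2.97% and 4.59% in replicate 1 and 2.61% and 11.6% in replicate 2. In the smaller set the barcodes inside the range stood at 3.93% in replicate 1, beside their kept cells, and at 16.6% in replicate 2, beside the other left-out barcodes of that library. Those with few UMIs or genes stood at 6.79% and 9.56%, and those high in mitochondrial UMIs at 6.96% and 19.4%. In that set, UMIs on transcripts with a single annotated exon, Malat1 among them, went from 5.11% to 6.31% in replicate 1 and from 5.00% to 12.7% in replicate 2. Without Malat1 they went from 4.18% to 4.88% and from 4.43% to 8.30%, and over all transcripts from 11.3% to 22.5% and from 13.2% to 46.8%. In the same set the mean annotated length of the transcripts counted was 2291 bases in kept cells and 2539 in left-out barcodes of replicate 1, and 2078 and 3627 in replicate 2, which is a property of the annotation and not a read length.

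**Figure D3:**
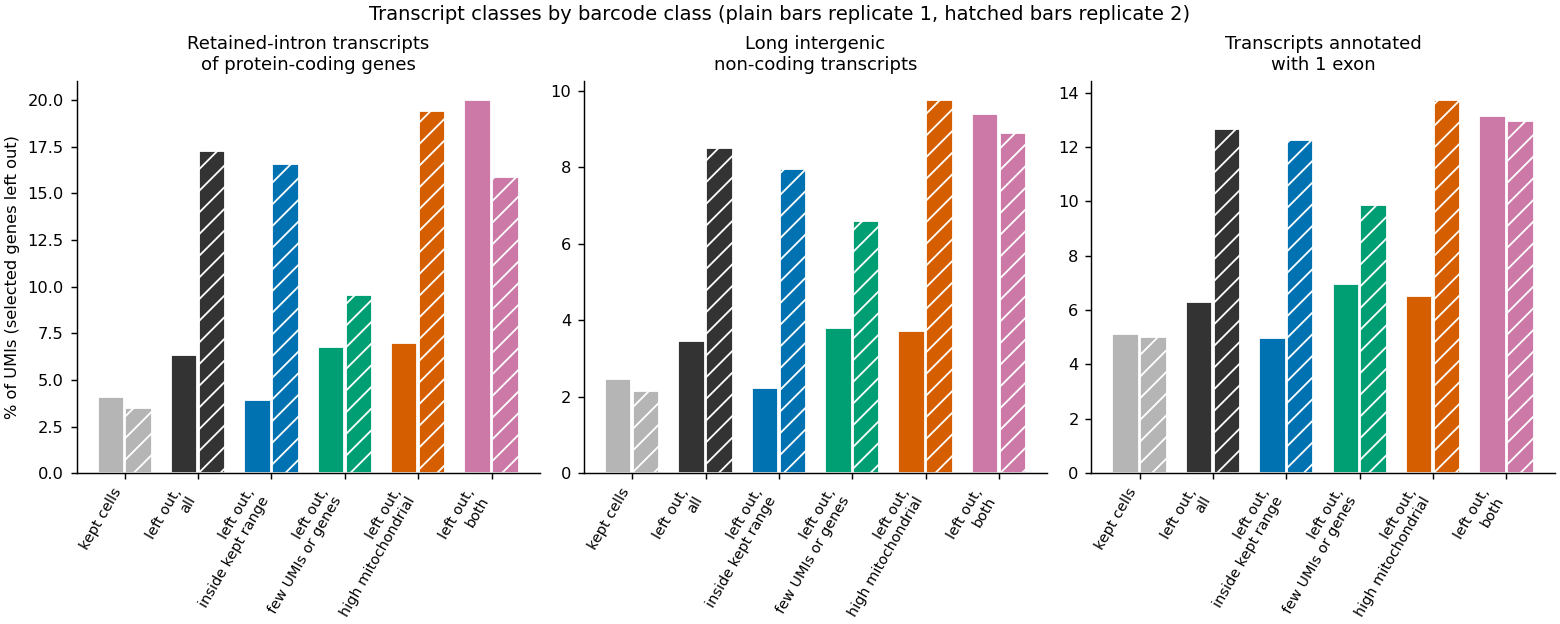
Share of UMIs, in percent on the y axis, on retained-intron transcripts of protein-coding genes, on long intergenic noncoding transcripts and on single-exon transcripts, for kept cells and the groups of left-out barcodes (colours), with plain bars for replicate 1 and hatched bars for replicate 2. Mitochondrial and hormone genes, Gm42418, Gm26917, AY036118 and Lars2 are left out, and in the first panel the share is of UMIs of protein-coding genes. The barcodes inside the range stand at 3.93% in replicate 1 and 16.6% in replicate 2 in that panel.

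Usage of transcripts within genes was tested over 23925 transcripts of 7997 genes (diffSpliceDGE of edgeR, with the Simes p-value of each gene adjusted by Benjamini-Hochberg), and 81 genes (1.01%) changed. The transcript with the largest gain in share was a retained-intron transcript in 48 of the 81 (59.3%), and in 2962 of the 5944 tested genes that had a transcript gaining in both libraries (49.8%). The transcript with the largest loss was protein coding in 81 of 81 called genes, and in 5019 of the 6034 tested genes with a transcript losing in both libraries (83.2%). A transcript was tested if it held 5% of its gene in either class. One below this in kept cells thus entered only through left-out barcodes, and the reverse. The counts of gains and losses by class may partly follow from this rule, and how far was not tested. With library totals in place of TMM scaling the test called 3 genes, all among the 81. Without the library block it called 64, of which 52 were among the 81.

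The direction was shared widely among the genes tested. Of 1402 tested genes with at least 50 UMIs in every sum and an annotated retained-intron transcript, the summed retained-intron share was higher in left-out barcodes in both libraries in 1094 (78.0%) and lower in both in 43 (3.07%). The median share over these genes went from 9.43% in kept cells to 13.5% in left-out barcodes in replicate 1, and from 9.64% to 29.3% in replicate 2. Retained-intron transcripts below the share minimum in kept cells were tested only if left-out barcodes met it. The rule can thus tilt these counts and the summed shares of the genes named below toward higher values in left-out barcodes. The size of that tilt was not tested.

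3 of the called genes illustrate annotated retained introns, with bases copied from the reference transcripts and not from reads of these data. Below, the last 15 bases of an exon are in lower case and the 15 bases that follow in the transcript are in capitals, first for the spliced transcript and then for the transcript that keeps the intron. All are on the plus strand of mm10 with GENCODE M21 annotation. In the second of each pair the capitals open with GT, the bases that begin most introns.
Mtch2-205, intron 4 removed: tctgagaaacctgagGAGTTAGGATCTGTA
Mtch2-208, intron 4 kept: tctgagaaacctgagGTATGTTGAAGCTTT
Mapre3-202, intron 3 removed: atgggtgttgacaaaATCATTCCCGTAGAG
Mapre3-203, intron 3 kept: atgggtgttgacaaaGTAGGTGTCTGTACC
Hspa5-201, intron 5 removed: gatcatcaatgagccTACAGCAGCTGCTAT
Hspa5-205, intron 5 kept: gatcatcaatgagccGTAAGTATGGGACTC

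Mtch2 encodes an insertase of the outer mitochondrial membrane, and the intron shown spans chr2:90852867-90853050 (184 bases). Its retained-intron transcripts took 7.26% of the gene's UMIs in kept cells and 19.1% in left-out barcodes of replicate 1, and 6.29% and 61.9% in replicate 2. The spliced Mtch2-205 went from 75.1% to 61.2% and from 78.2% to 17.7%, from between 178 and 1113 UMIs of the gene per sum. Both its left-out shares lay outside the range of its kept shares, and far outside it in replicate 2. Usage of the gene's transcripts gave an adjusted p of 0.020. By transcript Mtch2-209 passed (adjusted p = 0.017), while Mtch2-208 (0.13) and Mtch2-205 (0.67) did not.

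Mapre3 encodes a protein that binds the growing ends of microtubules, and the intron shown spans chr5:30862644-30863203 (560 bases). The summed retained-intron share of Mapre3 went from 18.8% to 40.3% in replicate 1 and from 11.5% to 75.7% in replicate 2 (62 UMIs in the smallest sum). The adjusted p of 0.019 is that of the gene's usage, and Mapre3-203 itself did not pass (adjusted p = 0.26). With at least 50 UMIs per transcript the gene was not called (adjusted p = 0.22). Hspa5 encodes the endoplasmic reticulum chaperone BiP, and the intron shown spans chr2:34773934-34774027 (94 bases). Its retained-intron share was lower than for Mtch2 or Mapre3, 0.4996% and 1.08% in replicate 1 and 1.49% and 16.2% in replicate 2 (adjusted p = 0.0078). The coding transcript Hspa5-202 took 27.9% and 32.6% of Hspa5 UMIs in replicate 1 and 27.2% and 62.2% in replicate 2, as Hspa5-201 went from 71.6% to 66.4% and from 71.3% to 21.6%.

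The other genes named by the rule showed the same direction in the sum of their retained-intron transcripts. Hnrnpl, a splicing regulator, went from 11.3% to 32.2% and from 9.42% to 71.0% (adjusted p = 0.025). Abhd18 went from 43.7% to 68.3% and from 45.0% to 90.3% (adjusted p = 0.026). Rab28, a small GTPase, went from 2.80% to 12.3% and from 2.21% to 31.2% (adjusted p = 0.033). BC004004 went from 1.97% to 8.73% and from 2.38% to 28.7% (adjusted p = 0.020), and Gm16286 from 3.50% to 6.45% and from 1.80% to 54.1% (adjusted p = 0.042). Gains were not limited to retained-intron transcripts. The coding transcript BC004004-215 went from 3.22% to 5.56% and from 3.69% to 39.7%. Rab28-205, also coding, went from 11.4% to 19.3% and from 10.3% to 26.25%. Each p of these 8 genes tests the gene's transcript usage and not the summed share. Without TMM scaling none of the 8 passed, with adjusted p from 0.060 for Hspa5 to 0.27 for Gm16286. Without the library block Hspa5 (0.23), Gm16286 (0.064), BC004004 (0.055) and Hnrnpl (0.052) did not pass, and Gm16286 was also not called with at least 50 UMIs per transcript (1) or with no share minimum (0.051).

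**Figure D4:**
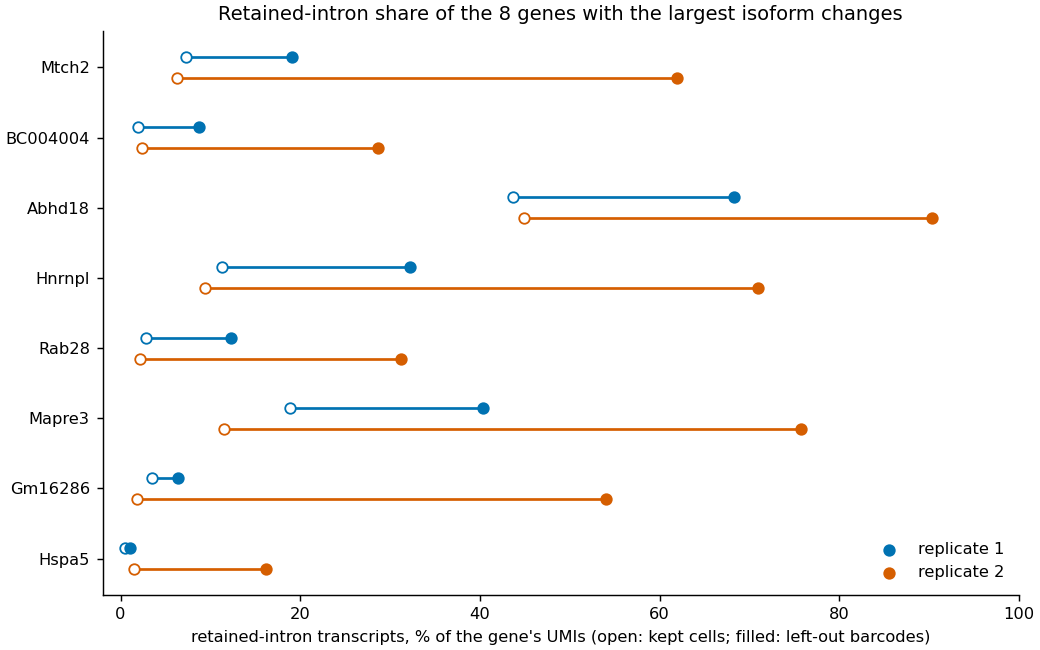
Summed share of retained-intron transcripts in the UMIs of each of the 8 genes named by the rule, in percent on the x axis, for both libraries, with open symbols for kept cells and filled symbols for left-out barcodes. Filled symbols lie to the right of open ones in every gene and library, with the wider gaps in replicate 2 (Mtch2 from 6.29% to 61.9%).

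Hormone transcripts were a smaller part of the left-out barcodes, above all in replicate 2. The 8 hormone genes together took 19.4% of kept and 13.2% of left-out UMIs in replicate 1, and 16.3% and 2.95% in replicate 2. Of the 8, 5 were lower in both libraries and 0 higher in both, the median log2 fold change was −2.38, and 0 passed the test. Sst was at 20327 CPM in kept cells and 14873 in left-out barcodes of replicate 1, and at 24834 and 1464 in replicate 2 (log2 fold change −2.59, SE 3.00, adjusted p = 0.65). Gcg measured 59263 and 27421 in replicate 1 and at 41324 and 5451 in replicate 2. Iapp stood at 69517 and 64362 in replicate 1, a difference far smaller than that between 52668 and 16811 in replicate 2.

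Barcodes with more than 10% of UMIs from hormone genes made up 82.9% of kept cells and 45.0% of left-out barcodes in replicate 1, and 80.9% and 3.88% in replicate 2. Among the barcodes inside the range the share was 95.1% in replicate 1 and 4.87% in replicate 2. The leading hormone of a barcode (none where no hormone reached 5 UMIs) was Iapp with the insulin genes in 53.7% of kept cells and 57.0% of left-out barcodes in replicate 1, and in 50.8% and 91.2% in replicate 2. A lead can rest on 5 UMIs, and free hormone RNA was not estimated, so it does not name a cell type. Of the 1031 left-out barcodes of replicate 2, 1027 held at least 1 UMI of the alpha cell list. In the barcodes high in mitochondrial UMIs it was Iapp with the insulin genes in 81.0% and 97.9%, and all hormone genes took 10.3% and 2.24% of their UMIs. The authors' kept beta cells had a mitochondrial share of 1.52% in replicate 1 and 3.66% in replicate 2, their alpha cells 0.857% and 1.64%. A link between cell type and the mitochondrial share of left-out barcodes was not tested. Sst led in 11.3% of kept cells and 6.33% of left-out barcodes in replicate 1, and in 17.9% and 0.873% in replicate 2.

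The lists of endocrine cell identity hold the hormone genes given above, so their counts partly repeat them. Of 10 tested genes of alpha cell identity, Gcg among them, 9 were lower in both libraries, and 2 fell: Edn3, encoding endothelin 3 (log2 fold change −2.53, SE 0.50, adjusted p = 0.0085), and Irx2, a homeobox factor (−1.74, SE 0.43, adjusted p = 0.042). Edn3 was at 32.4 and 13.2 CPM in replicate 1 and at 37.3 and 4.05 in replicate 2. Of 7 delta cell genes, Sst among them, 5 were lower in both and 0 passed the test. Of 5 PP cell genes 3 were lower in both, Ppy and Pyy among them, and 0 passed.

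Of 15 tested beta cell genes, which include Iapp and the insulin genes, 9 were higher in left-out barcodes in both libraries and 2 lower in both, with 0 passing the test and a median log2 fold change of 0.15. The list's summed share, in which abundant members weigh most, had the other sign, at 8.19% of kept and 8.02% of left-out UMIs in replicate 1 and 6.09% and 2.59% in replicate 2. The transcription factor Mafa measured 113 CPM in kept cells and 181 in left-out barcodes of replicate 1, and at 164 and 348 in replicate 2 (adjusted p = 0.66). Nkx6-1, another factor of the beta cell, stood at 224 and 307 in replicate 1 and at 173 and 374 in replicate 2. The glucose transporter gene Slc2a2 was at 572 and 653 in replicate 1 and at 315 and 739 in replicate 2. For each of the 3 genes the left-out sum lay above the kept sum of its library.

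Among the falls named by the rule Fxyd7 and Prph, genes of nerve-like cells, had the largest fold changes, and their UMIs came from few kept cells. Fxyd7, a regulator of the sodium pump, measured 20.9 and 1.02 CPM in replicate 1 and at 70.3 and 5.82 in replicate 2 (log2 fold change −4.20, SE 0.54, adjusted p = 4.0e-05). Prph, encoding the neuronal filament peripherin, stood at 28.6 and 4.57 in replicate 1 and at 85.1 and 7.34 in replicate 2 (log2 fold change −3.53, SE 0.52, adjusted p = 0.00027). Kept cells with a Prph UMI numbered 8 in replicate 1 and 16 in replicate 2, and those with a Fxyd7 UMI 9 and 21. The list of Schwann and nerve genes had 11 tested, of which 4 fell (Prph, Sncg, Stmn2 and Vip), 6 were lower in both libraries and 4 higher in both. Of the kept UMIs of Sncg, 90% lay in 7 cells of replicate 1 and 5 of replicate 2. For Stmn2 such cells numbered 13 and 5, and for Vip 5 and 4.

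Spp1 (osteopontin) and Krt19, both on the duct list, fell with log2 fold changes of −3.20 (SE 0.69, adjusted p = 0.017) and −2.26 (SE 0.53, adjusted p = 0.033), and 12 of 15 tested duct genes were lower in both libraries. At least 1 UMI of the duct list was in 87.2% of kept cells of replicate 1 and 98.7% of replicate 2, and Tspan8 is also on the PP list. The list's counts thus do not give the number of duct cells. Stmn1 and Cdk1 fell among 11 tested cycling genes, 8 of which were lower in both. The rule also named Npy (log2 fold change −2.78), Ctxn2 (−2.77), Ctxn1 (−2.75), the amino acid transporter gene Slc38a5 (−2.74) and Ass1 of the urea cycle (−2.71), all with an adjusted p between 0.0057 and 0.021. Their spread over kept cells differed. For Npy, 10 kept cells of replicate 1 and 6 of replicate 2 held 90% of its kept UMIs, and for Ass1 59 and 5. For Krt19 such cells numbered 10 and 12, but for Ctxn2 256 and 232, for Ctxn1 175 and 188, and for Slc38a5 158 and 162. Against only the kept cells that the authors name beta, the fold change changed sign for Prph, Spp1, Sncg, Ctxn2, Slc38a5, Ass1, Stmn1, Edn3, Stmn2, Vip and Irx2, which were then higher in left-out barcodes. In that setting Ctxn2 (adjusted p = 0.28), Slc38a5 (0.19), Ass1 (0.59) and Stmn1 (0.10) did not pass the test.

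Among genes that rose, 33 of 56 (58.9%) had a predicted-gene name against 2392 of 15835 tested (15.1%), and 32 (57.1%) were of a type other than protein coding against 14.1% of those tested. Kcnmb1, a regulatory subunit of the BK potassium channel (chr11:33963013-33973641), was at 14.5 and 61.4 CPM in replicate 1 and at 12.8 and 115 in replicate 2 (log2 fold change 2.30, SE 0.46, adjusted p = 0.0099). It lies antisense to Kcnip1. Pcsk2os2, antisense to the prohormone convertase gene Pcsk2, rose 4.05-fold (adjusted p = 0.020), and Ccdc60, which overlaps antisense genes, 3.19-fold (adjusted p = 0.045). The sources used here do not state whether UMIs were counted by strand, so reads of these genes and of their antisense partners cannot be told apart.

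Red cell genes rose, and nearly all of their UMIs lay in a few barcodes. Of 9 members 4 were tested and 3 rose, and those not listed in the tables included Slc4a1, Ahsp and Hemgn. Hbb-bs, a beta globin gene (chr7:103826534-103828096), had 1253 UMIs in kept cells and 1673 in left-out barcodes of replicate 1, and 0 and 222 in replicate 2. In replicate 1, 3 left-out barcodes held 90% of the 3016 red cell UMIs, and 3 kept cells held 90% of their 2042. A single barcode of replicate 2 held 307 of its 351 left-out red cell UMIs (87.5%). Globin genes have near-identical copies, so the split of UMIs among Hbb-bs, Hbb-bt (log2 fold change 3.61, adjusted p = 0.0042) and Hba-a2 (3.74, adjusted p = 0.0057) is uncertain.

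Acinar genes encode digestive enzymes of the exocrine pancreas, and their summed share was higher in the left-out barcodes of replicate 2 but not of replicate 1. Of 32 members 16 were tested and 3 rose: Prss2 (trypsin; log2 fold change 2.97, adjusted p = 0.0058), Cpa1 (carboxypeptidase A; 2.85, adjusted p = 0.013) and Pnlip (pancreatic lipase; 2.78, adjusted p = 0.015). In replicate 2 these had 86, 39 and 62 UMIs in kept cells and 287, 166 and 222 in left-out barcodes. In replicate 1 they had 0, 3 and 1 UMIs in kept cells and 2, 1 and 0 in left-out barcodes, so the 3 calls rest on replicate 2. For Cpa1, 2 left-out barcodes of replicate 2 held 90% of its UMIs there. The list took 0.0171% of kept and 0.0869% of left-out UMIs in replicate 2, and 0.00528% and 0.00401% in replicate 1. Just 2 of the 106 replicate 2 barcodes with few UMIs or genes held 90% of that group's 2550 acinar UMIs. Acinar UMIs were otherwise thinly spread, with at least 1 in 691 of the 1093 kept cells of replicate 2. Prss1, Prss3, Cela3a and Amy2a2 were not listed in the tables.

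Endothelial genes were higher in left-out barcodes for 12 of 13 tested in both libraries and 0 passed the test (median log2 fold change 1.26). Their place differed by library. In replicate 1 they took 0.306% of UMIs in barcodes with few UMIs or genes against 0.0519% in kept cells, with 57 barcodes holding 90%. In replicate 2 they took 0.240% in barcodes inside the range against 0.0198% in kept cells, with 15 barcodes holding 90% of 5375 UMIs. Kdr, the main VEGF receptor, measured 27.5 and 37.1 CPM in replicate 1 and at 12.1 and 98.0 in replicate 2 (adjusted p = 0.12).

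Stellate and pericyte genes made up 0.0550% of kept and 0.0600% of left-out UMIs in replicate 1, and 0.0223% and 0.0454% in replicate 2. By group they made up 0.371% of UMIs in replicate 1 barcodes with few UMIs or genes against 0.0550% in kept cells, and 0.0790% in replicate 2 barcodes inside the range against 0.0223%. Macrophage genes made up 0.173% of kept and 0.121% of left-out UMIs in replicate 1, and 0.0822% and 0.0834% in replicate 2. Of 17 tested, 7 were lower in both libraries and 1 higher in both (median log2 fold change −0.61). By group they made up 0.736% in replicate 1 barcodes with few UMIs or genes, where 16 barcodes held 90%, but 0.0649% in those high in mitochondrial UMIs and 0.0184% in those inside the range. Inside the range of replicate 2 they made up 0.139%, where 3 barcodes held 90%. Of the 13 stellate and 17 macrophage genes tested 0 passed. The T and NK cell, B cell, neutrophil and platelet lists had 3, 4, 2 and 2 tested genes, of which 0 passed, and none took over 0.0118% of UMIs in the kept or left-out sum of either library. Of 20 immediate early, 20 unfolded protein response and 16 cell death genes tested, 0 passed, with median log2 fold changes of −0.35, −0.54 and −0.06.

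The barcodes inside the range were also tested on their own. They lie between the kept cells' extremes, not at their medians. Of 15572 genes 8 changed (0.0514%), 0 higher and 8 lower: Prph, Fxyd7, Vip, Gng3, Sncg, Stmn2, Tac1 and Slc18a3, genes of neurons or neuropeptides. Prph was at 0 UMIs in replicate 1 against 315 in kept cells, and at 3 UMIs in replicate 2 against 1029 in kept cells (adjusted p = 0.00031). Vip, a neuropeptide gene, was at 0 UMIs against 711 in replicate 1, and at 20 UMIs against 1461 in replicate 2 (adjusted p = 0.0037). Tac1, the precursor gene of substance P, was at 0 in both libraries and so entered the test through its kept UMIs alone, 90% of which lay in 4 kept cells of replicate 1 and 3 of replicate 2. For Prph such cells numbered 6 and 5, and for Vip 5 and 4. In replicate 2 they numbered 5 or fewer for each of the 8 genes. A gene held by so few kept cells can be absent from a smaller group of barcodes, so these zeros give no bound on a fold change. Without the library block 0 genes were called, with 903 at an unadjusted p under 0.05, and DESeq2 called 5.

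The 2 libraries placed different barcodes inside the range. In replicate 1, 83 of 144 (57.6%, exact binomial interval 49.1 to 65.8) held at least 2 of the 4 hormones glucagon, somatostatin, pancreatic polypeptide and amylin with insulin at over 5% of UMIs each, against 395 of 4814 kept cells (8.21%). Thinned to 500 UMIs per barcode the shares were 52.8% and 8.10%, and at over 10% of UMIs each 7.64% and 1.08%. In replicate 2 only 4 of 513 (0.780%, interval 0.213 to 1.98) did, against 184 of 1093 kept cells (16.8%). A barcode can meet this definition only with over 10% of its UMIs from hormones, which 25 of these 513 (4.87%) and 80.9% of the kept cells had. Among the authors' kept delta cells 26.5% in replicate 1 and 42.8% in replicate 2 met the same definition.

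Barcodes inside the range in replicate 2 instead held less hormone and more nuclear RNA than kept cells. Hormone genes took 3.25% of their UMIs against 16.3% in kept cells, the 9 nuclear RNAs 3.08% against 0.715%, and UMIs on annotated transcripts 70.3% of gene UMIs against 89.4%. Their counterparts in replicate 1 stood at 19.8% against 19.4%, 0.825% against 0.941%, and 85.9% against 86.4%. Ribosomal protein genes took 2.47% against 2.43% in replicate 1 and 0.756% against 2.95% in replicate 2.

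**Figure D5:**
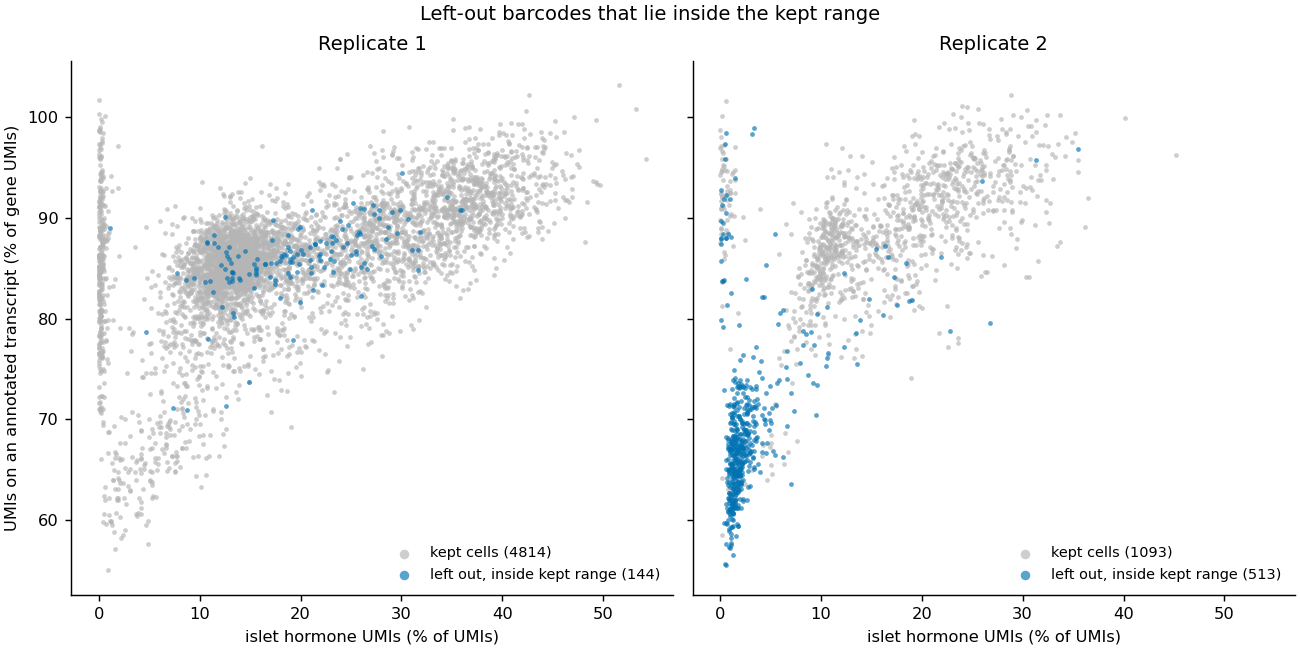
Each point is 1 barcode, with the share of UMIs from hormone genes on the x axis and UMIs on annotated transcripts as a percentage of gene UMIs on the y axis, for kept cells and the left-out barcodes inside their range, by library. Some barcodes exceed 100% because the 2 tables were counted separately. The 144 barcodes of replicate 1 lie among the kept cells, while most of the 513 of replicate 2 lie at low hormone share, with a median of 67.4% on the y axis.

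Of the 12 genes with the largest higher values inside the range in both libraries, 0 passed the test (adjusted p = 0.997 for each). Apod, encoding apolipoprotein D, stood at 15.3 CPM in kept cells and 49.8 inside the range in replicate 1, and at 31.4 and 111 in replicate 2. Plch1, a phospholipase C gene, was at 9.35 and 21.8 in replicate 1 and at 7.77 and 31.3 in replicate 2. Aqp7, a channel for water and glycerol, rested on 8 UMIs inside the range in replicate 1 and 43 in replicate 2.

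Genes per barcode were also compared at equal depth. Thinned to 500 UMIs, kept cells had a median of 336 genes and left-out barcodes 329 in replicate 1, where 489 left-out barcodes were too shallow to enter, and 332 and 319 in replicate 2. Without mitochondrial genes the medians were 337 and 338 in replicate 1 and 334 and 344 in replicate 2. Annotated transcripts per barcode, thinned to 500 transcript UMIs, differed more, at 304 and 288 in replicate 1 and 296 and 237 in replicate 2. In replicate 1, 4763 of 4814 kept cells and 825 of 1581 left-out barcodes were deep enough to enter. Transcripts were not recounted without mitochondrial genes. Inside the range the medians were 306.5 transcripts in replicate 1 and 286 in replicate 2, and in barcodes high in mitochondrial UMIs 288.5 and 205. Those with few UMIs or genes had 212 and 198, and those with both 153 and 151, with only 51 and 18 such barcodes entering in replicate 1.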

How the data were processed

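The authors deposited UMI counts per gene and per transcript for the barcodes of each library, with a table of named cells, all used as raw counts. Per the submitters' processing notes the build was mm10 and Seurat was used; the aligner, counter, strand setting, barcode subset rule and cell filters are not given in the sources used here. Kept cells' UMI totals equalled those in the cell table for all 4814 and 1093 cells. Annotation was GENCODE M21, matching 69648 of 69994 transcripts and 23011 of 23465 genes.

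Counts were summed per library and class and tested with edgeR 4.0.16 (R 4.3.3): TMM scaling, filterByExpr, library and class as terms, Benjamini-Hochberg adjustment, threshold 0.05. The library pairs the sums because both classes come from 1 droplet run. Each SE was computed from the fold change and the test's F statistic, so it is not the spread between the libraries. The 1 residual degree of freedom was combined with a prior from all genes, at a median of 35.3 degrees of freedom for all left-out barcodes. For those inside the range the median was 35.8. Transcripts needed at least 10 UMIs in all and 5% of their gene in either class. The fits were also run on simulated counts with a smaller dispersion than the 0.105 and 0.181 fitted here and equal effects in both libraries. That run therefore does not measure their error rate on these data. DESeq2 1.42.0 was an alternative. Shares are sums over barcodes with 95% exact binomial intervals, under Python 3.11.15 and SciPy 1.17.1. Kept sums held 11012364 and 12092393 UMIs, left-out sums 1969600 and 3949574, and the smaller inside-range sum 642812.

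Genes were named by rule: per comparison the 12 largest called rises and falls by log2 fold change, above the median level, in the same direction in each library with at least 20 UMIs in the higher class, without predicted genes. Where fewer passed, the rest were the largest ratios in both libraries with at least 50 UMIs in each, given as values. Up to 4 members per list by adjusted p were added, and 8 called isoform genes with at least 50 UMIs in every sum. The 24 gene lists and the groups of barcodes were chosen with earlier results of these data known. The insulin gene panel and the other 5 samples of the series were not analysed here. Values of some list members are not reported here.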

Additional observations from a re-analysis of the deposited data

How the results depend on the processing

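With 2 libraries the fits had 1 residual degree of freedom, and leaving out a library left values without a test. The 132 genes called between left-out barcodes and kept cells became 33 under DESeq2 (24 of them among the 132), 214 without TMM, 474 with no filter beyond 1 UMI, 33 with at least 50 UMIs per gene, 520 with kept sums thinned to the left-out totals, 1793 against kept beta cells only, and 444 with gene UMIs summed from the transcript table. Without the replicate block, which ignores that both classes share a library, 0 were called. Without mitochondrial genes the count was 103. Chosen after seeing the data, only barcodes with few UMIs or genes gave 94, only those high in mitochondrial UMIs 49. The 8 genes called inside the range became 0 without the replicate block, 5 under DESeq2, 4 without TMM, 15 with no filter and 15 with at least 50 UMIs. The 81 isoform genes became 42 with at least 50 UMIs per transcript, 3 without TMM and, chosen after seeing the data, 172 with at least 10 UMIs of the gene in every sum. The cause of these shifts was not tested.

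Direction changed against kept beta cells only, as log2 fold changes, for Prph (3.46), Spp1 (1.33), Sncg (3.83), Ctxn2 (0.84), Slc38a5 (1.16), Ass1 (0.31), Stmn1 (0.92), Edn3 (3.17), Stmn2 (3.54), Vip (3.51) and Irx2 (2.39). Of these, Ctxn2, Slc38a5, Ass1 and Stmn1 did not pass the test against kept beta cells. Genes that had not passed against all kept cells and also changed direction included C1qc (6.32), Thy1 (2.71), Acta2 (6.28), Tagln (6.06), Myl9 (6.20), Hhex (2.73), Ptprz1 (4.92) and Atf3 (3.26). These comparisons set mixed left-out barcodes against 1 cell type. mt-Atp6 turned to −0.15 with only few-UMI barcodes, Cpa1 to −0.81 with only high-mitochondrial ones, and Pnlip to −0.12 without replicate 2 (3.22 without replicate 1).

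The log2 ratio of summed shares ranged, with 1 library left out, from −2.47 to −0.56 for hormones, from 0.87 to 1.71 for nuclear RNAs and from −2.30 to −0.35 for ribosomal proteins. Without Gm42418 and Gm26917, chosen after seeing the data, the ratio for nuclear RNAs ranged more widely, from 0.53 to 2.08, with a mean of 1.31. The difference in mitochondrial share ranged from 2.43 to 6.01 points, and over all transcripts in retained-intron share from 1.20 to 6.10, in protein-coding share from −26.9 to −7.98 and in lincRNA share from 5.76 to 17.8. The lincRNA difference of 11.8 points became 3.68 without mitochondrial, hormone and Gm42418 genes, a set chosen after seeing the data. Barcodes with 2 hormones inside the range were 7.64% and 0% at the stricter limit, the 0 of 513 allowing up to 0.717%. The difference in genes per barcode turned from −10 to 5.5 without mitochondrial genes. Left-out barcodes within 2 mismatches of a kept one were 8.29% in replicate 1 and 2.13% in replicate 2, in place of 0 within 1.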

Other observations

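Olfactory and vomeronasal receptor genes, of families normally silent outside sensory neurons, were chosen after their values were seen. Together they took 0.315% of kept and 0.481% of left-out UMIs in replicate 1, and 0.295% and 1.21% in replicate 2. Of 322 tested 4 rose and 0 fell, 289 were higher in left-out barcodes in both libraries, and the median log2 fold change was 1.08. Over all genes tested 0.354% rose, 0.48% fell and 50.8% were higher in both libraries, with a median of 0.03. The UMIs were spread over many barcodes, with 919 left-out barcodes of replicate 1 and 693 of replicate 2 holding 90% of them. Barcodes inside the range stood at 0.314% in replicate 1 and 1.26% in replicate 2, the same split between the libraries as for retained introns.

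No left-out barcode lay within 1 mismatch of a kept barcode of its library, which allows a share of up to 0.233% in replicate 1 and 0.357% in replicate 2 (upper exact binomial limits). Within 2 mismatches the share was 8.29% of left-out barcodes against 8.87% of kept cells in replicate 1, and 2.13% against 0.915% in replicate 2. Of the left-out barcodes with such a neighbour, 110 of 131 in replicate 1 and 21 of 22 in replicate 2 had fewer UMIs than it.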
